A study of Mus musculus with 24 samples.

Results

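Chemokines are small secreted proteins that direct the movement of leukocytes, and chemokine receptors are the G protein-coupled receptors that read them. In the small intestine, epithelium, stroma and immune cells make ligands that recruit lymphocytes, plasma cells and myeloid cells into the mucosa, and some ligands are induced there by microbial signals or by interferon-γ. Atypical receptors bind chemokines without the usual G protein signalling and clear them or hold them. The genes described here are those of the array's annotation with a probe set of their own whose symbol is Ccl, Cxcl, Xcl or Cx3cl, or Ccr, Cxcr, Xcr, Cx3cr or Ackr, followed by a number. This rule gave 54 of the 18820 genes measured, of which 34 are ligands and 20 are receptors, and it used no expression value.

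RNA of the terminal ileum of 24 male C57BL/6OlaHsd mice, 8 weeks old, was hybridized to Mouse Gene 1.1 ST arrays from Affymetrix, each mouse on its own array. Germ-free and conventional mice received long-chain β2→1-fructan, short-chain β2→1-fructan or water by oral gavage for 5 days, with 4 mice in each of the 6 groups. Fructans were given at 10 mg per day, and all mice ate the same purified low-fat diet. The question was how the fructans act on the gut with and without a microbiota. Short-chain β2→1-fructan is made from chicory inulin by partial hydrolysis, and long-chain β2→1-fructan is a product based on native chicory inulin. For germ-free mice alone the short-chain preparation was filtered and the long-chain preparation was irradiated, which degraded part of its longest chains. The conventional mice came from a supplier and the germ-free mice from the breeding colony of another facility, so that colonization and origin of the mice cannot be told apart.

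Values are log2 expression values after robust multiarray averaging (RMA), with array medians from 4.92 to 4.98. Pairs of arrays of the same group correlated across the 18820 genes with r from 0.99 to 0.995. Calls needed a p under 0.01 before adjustment together with a difference of more than 1.3-fold up or down, and the Benjamini-Hochberg adjusted p (limma, over all 18820 genes) is given beside it. Epithelial markers (Epcam, Vil1, Cdh1, Krt8 and Krt20) were present in every mouse, with a mean log2 value from 11.45 to 11.61 in germ-free mice and from 11.43 to 11.55 in conventional mice. A probe set has its own binding strength, so levels are compared between mice and not between genes. Many members were dim: only 17 of the 54 reached 5.53, the median of all genes' means, in at least 1 group, and RMA may compress the changes of dim genes. The number of arrays limits the precision.

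Cxcl9 and Cxcl10 lie next to each other on chromosome 5 of GRCm38.p6 and encode ligands of Cxcr3 that interferon-γ induces. They were 2 of the 3 members with the largest differences between germ-free and conventional mice, and their promoters are shown for that reason. Ccl5, which had the largest difference, had no promoter in the RefSeq table. Each RefSeq sequence runs from 250 bases before to 50 bases after the start of the gene, on the minus strand, at chr5:92328030-92328329 for Cxcl9 and chr5:92348840-92349139 for Cxcl10. Capitals mark matches to the interferon-stimulated response element (ISRE, searched as GAAA and GAAA with any 2 bases between them) or to the kappa-B element (GGG and TTCC with any 3 bases between them).
Cxcl9: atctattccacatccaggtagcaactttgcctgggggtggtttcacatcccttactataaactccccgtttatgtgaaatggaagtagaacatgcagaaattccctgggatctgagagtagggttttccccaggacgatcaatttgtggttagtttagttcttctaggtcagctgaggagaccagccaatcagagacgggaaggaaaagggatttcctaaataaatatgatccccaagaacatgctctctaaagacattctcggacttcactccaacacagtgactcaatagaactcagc
Cxcl10: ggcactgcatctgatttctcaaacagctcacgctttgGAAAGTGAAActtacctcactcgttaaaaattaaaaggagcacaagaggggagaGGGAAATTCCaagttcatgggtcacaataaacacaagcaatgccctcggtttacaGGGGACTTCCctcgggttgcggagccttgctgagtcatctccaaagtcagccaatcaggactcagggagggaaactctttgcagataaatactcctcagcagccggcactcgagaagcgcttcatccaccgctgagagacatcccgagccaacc
The patterns searched on both strands were these and TTCNNNGAA, the interferon-γ activated site (GAS), and no match of one overlapped a match of another in the sequences shown. Cxcl10 held 1 ISRE match, which begins 213 bases before the start, and 2 kappa-B matches, which begin 159 and 104 bases before it. Cxcl9 held 0 matches to these letters in this window. The promoter of Ccr9, the member with the next largest difference after Cxcl10, is not shown and held 0 matches too. Of the 54 members, 40 had a promoter in the RefSeq table, with 42 sequences. A kappa-B match was found in 9 of these 42 sequences (21.4%) and in 5.6% of the 32851 mouse promoters of the same length. Of the 17 promoters of members called between germ-free and conventional mice over the 3 treatments, 2 held a kappa-B match. Most of the kappa-B matches were in members that were not called. The ISRE pattern was in 3 member sequences (7.1%), 2 of them of called members, and in 3.4% of all promoters. The GAS pattern was in 3 member sequences (7.1%), 2 of them of called members, and in 8.3% of all promoters. The promoters and the patterns were chosen after the expression values were known, and a match is a description of letters, not a site.

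In germ-free ileum, part of the chemokine genes were called lower than in conventional ileum, and these were spread over most roles. Averaged over the 3 treatments, 19 of the 54 members fell in germ-free mice and 0 rose (35.2%), where 8.2% of all genes were called, 5.22% lower and 2.99% higher. The largest difference was in Ccl5, 7.02-fold lower, followed by Cxcl9 (3.83-fold), Cxcl10 (2.52-fold) and Ccr9 (2.48-fold). At an adjusted p under 0.05, 25 members were lower and 2 were higher, against 15.4% and 18.6% of all genes. Of the 54 differences 44 were below 0, with a median of -0.17 on the log2 scale, whereas 41.9% of all genes were below 0 and their median was 0.03. By kind, 13 of the 34 ligands and 6 of the 20 receptors fell. Since whole pieces of ileum were measured, fewer cells of a type and less RNA per cell cannot be told apart.

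The same comparison could be made apart in each treatment, with no mouse shared. With long-chain fructan 18 members fell and 0 rose in germ-free against conventional mice (9.69% of all genes were called, 6.26% lower and 3.43% higher). With short-chain fructan 13 fell and 1 rose (8.76% of all genes, 4.47% lower and 4.29% higher), and on water 16 fell and 0 rose (8.74% of all genes, 5.96% lower and 2.77% higher). All germ-free mice were below all conventional mice of the same treatment for 19 members with long-chain fructan (8.88% of all genes), 14 with short-chain fructan (7.86%) and 17 on water (9.37%). In all 3 treatments 10 members were called lower, namely Ccl5, Ccl6, Ccl22, Ccl28, Cxcl9, Cxcl10, Cxcl12, Cxcl16, Ccr9 and Cx3cr1, while 2.86% of all genes were. The short-chain call of Cx3cr1 was at the fold threshold and was lost without germ-free mouse 1, 3 or 4 or conventional mouse 1, 2 or 3, and its water call without conventional mouse 3. For 8 members every one of the 12 germ-free mice was below every one of the 12 conventional mice (2.44% of all genes). These were Ccl5, Ccl6, Ccl22, Cxcl9, Cxcl10, Cxcl12, Cxcl16 and Ccr9.

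**Figure D1:**
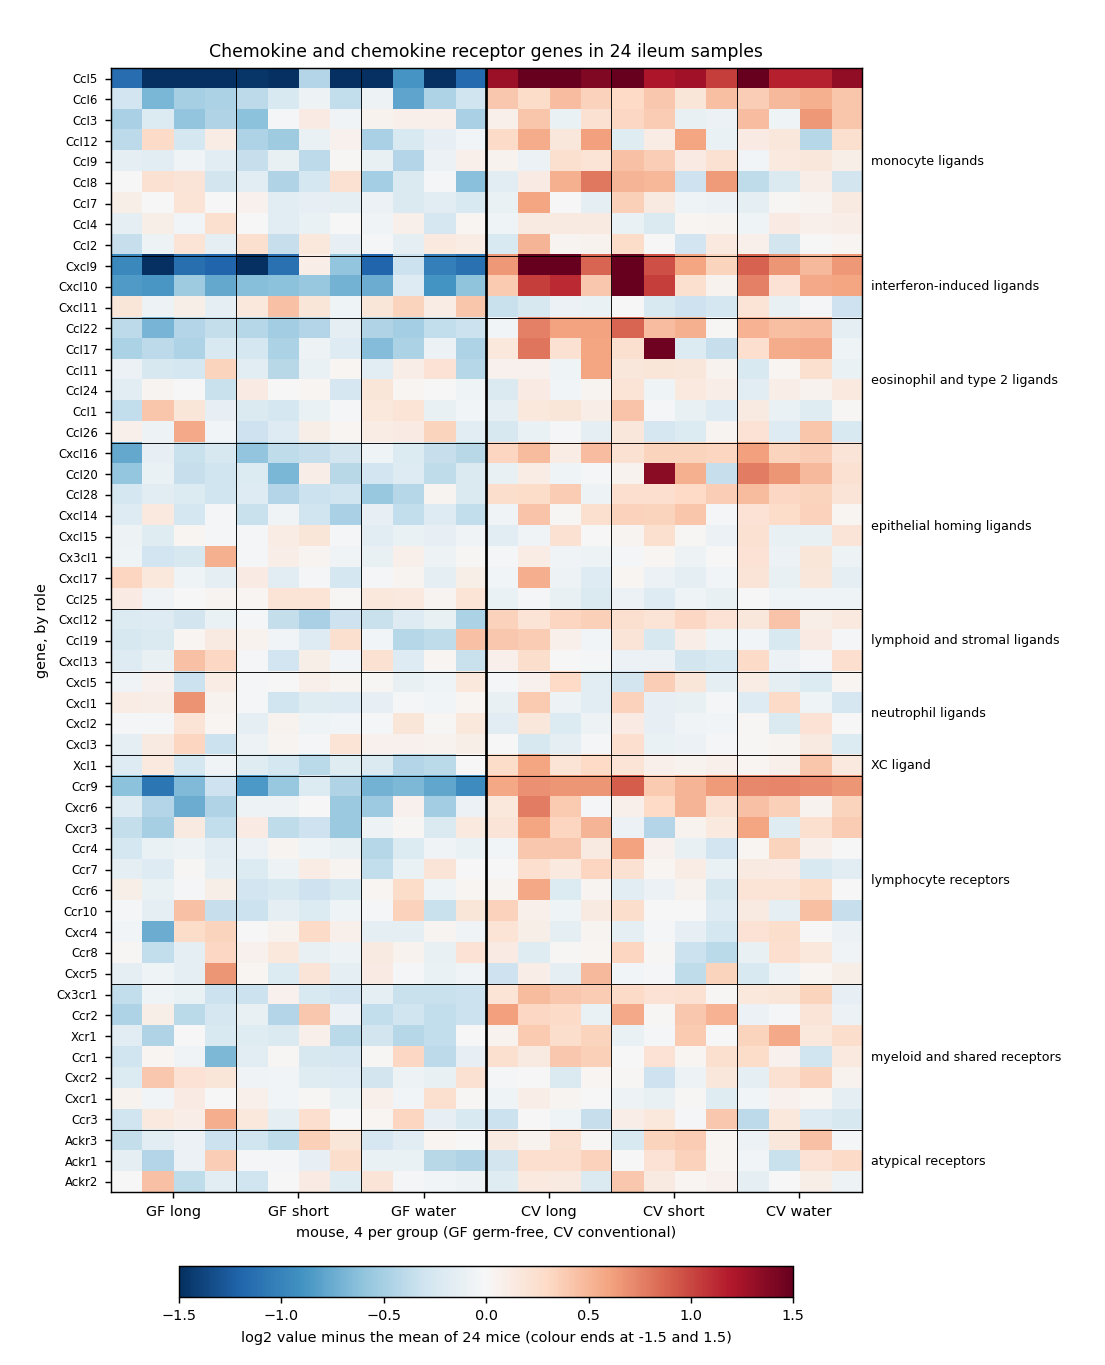
Log2 value of each of the 54 genes in each of the 24 mice, centred on the mean of the gene over all mice, with genes in rows grouped by role and mice in columns grouped by treatment, germ-free (GF) mice left of conventional (CV) mice. Ccl5, Cxcl9, Cxcl10 and Ccr9 separate the 12 germ-free mice from the 12 conventional mice, while the neutrophil ligand rows do not.

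Among 9 inflammatory CC ligands, which draw monocytes, T cells and other leukocytes, 3 fell (5.22% of all genes were called lower). All 9 differences were below 0, as were 41.9% of those of all genes. Ccl5, which encodes a ligand made by T cells and other activated cells, had log2 values of 5.17, 4.72, 4.56 and 4.65 in germ-free long-chain mice, against 7.59, 7.96, 8.15 and 7.70 in conventional long-chain mice. The values were 4.85, 4.71, 5.87 and 4.69 in germ-free short-chain mice, against 8.05, 7.52, 7.57 and 7.35 in conventional short-chain mice. On water they were 4.53, 5.42, 4.51 and 5.14 in germ-free mice, against 8.15, 7.47, 7.46 and 7.64 in conventional mice. No germ-free mouse came near the conventional range, and the highest of them, short-chain mouse 3, was at 5.87. The log2 difference was -2.81 (standard error 0.13, adjusted p = 4.3e-15), and by treatment it was -3.07 with long-chain fructan, -2.59 with short-chain fructan and -2.77 on water.

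Ccl6, which encodes a CC ligand of myeloid and epithelial cells in mice, lay between 8.63 and 9.35 in germ-free mice (median 9.04) and between 9.61 and 9.96 in conventional mice (median 9.83). The ranges did not overlap, and the log2 difference was -0.77 (standard error 0.061, adjusted p = 1.3e-10). Ccl3, which encodes macrophage inflammatory protein 1α, had a log2 difference of -0.43 (standard error 0.099, adjusted p = 1.2e-03) with overlapping ranges, and within the treatments it was called only with long-chain fructan. Without germ-free short-chain mouse 1 its call over the 3 treatments was lost. Ccl9 was called in short-chain mice (log2 difference -0.50, standard error 0.10, adjusted p = 1.0e-03), and there all germ-free mice were below all conventional mice. Ccl2, the main ligand of Ccr2, had medians of 3.58 in germ-free mice and 3.66 in conventional mice and was not called.

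The interferon-induced ligands did not move as 1 group. Cxcl9 had log2 values of 4.95, 4.42, 4.78 and 4.73 in germ-free long-chain mice, against 6.56, 7.51, 7.60 and 6.79 in conventional long-chain mice. Short-chain mice had 4.35, 4.79, 6.01 and 5.32 when germ-free, against 8.15, 6.88, 6.51 and 6.25 when conventional. On water the values were 4.72, 5.59, 4.89 and 4.79 in germ-free mice, against 6.80, 6.58, 6.40 and 6.56 in conventional mice. The groups did not overlap in any treatment, although germ-free short-chain mouse 3, at 6.01, came near the lowest conventional mouse, at 6.25. The log2 difference of Cxcl9 was -1.94 (standard error 0.18, adjusted p = 4.3e-09).

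Cxcl10 lay between 3.99 and 4.69 in germ-free mice (median 4.21) and between 4.94 and 6.45 in conventional mice (median 5.47). The conventional mice spread widely, with short-chain mouse 1 highest, and the germ-free mice lay close together. The log2 difference was -1.33 (standard error 0.13, adjusted p = 8.6e-09). Cxcl11, next to these genes on chromosome 5, is known to carry a frameshift in the C57BL/6 strain. It was between 5.16 and 5.75 in germ-free mice (median 5.47) and between 4.97 and 5.51 in conventional mice (median 5.14), a log2 difference of 0.30 (standard error 0.069, adjusted p = 9.6e-04) that is under the fold threshold. It was the 1 member called higher in any treatment, with short-chain fructan (log2 difference 0.38, adjusted p = 0.029, exact permutation p = 0.057), and there the 2 groups overlapped. That call was lost when 1 of 4 mice was left out (germ-free short-chain mouse 2 or conventional short-chain mouse 2, 3 or 4).

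Cxcr3, the receptor of these ligands on activated T cells, had a log2 difference of -0.39 (standard error 0.097, adjusted p = 2.2e-03), just past the fold threshold. Its ranges overlapped, from 3.51 to 4.21 in germ-free mice (median 3.81) and from 3.63 to 4.66 in conventional mice (median 4.28). By treatment it was called with long-chain fructan (-0.68), but neither with short-chain fructan (-0.20) nor on water (-0.29). The call over the 3 treatments was lost when 1 of these mice was left out: germ-free long-chain mouse 2, short-chain mouse 4 or water mouse 3, or conventional long-chain mouse 2, short-chain mouse 3 or 4, or water mouse 1 or 4.

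**Figure D2:**
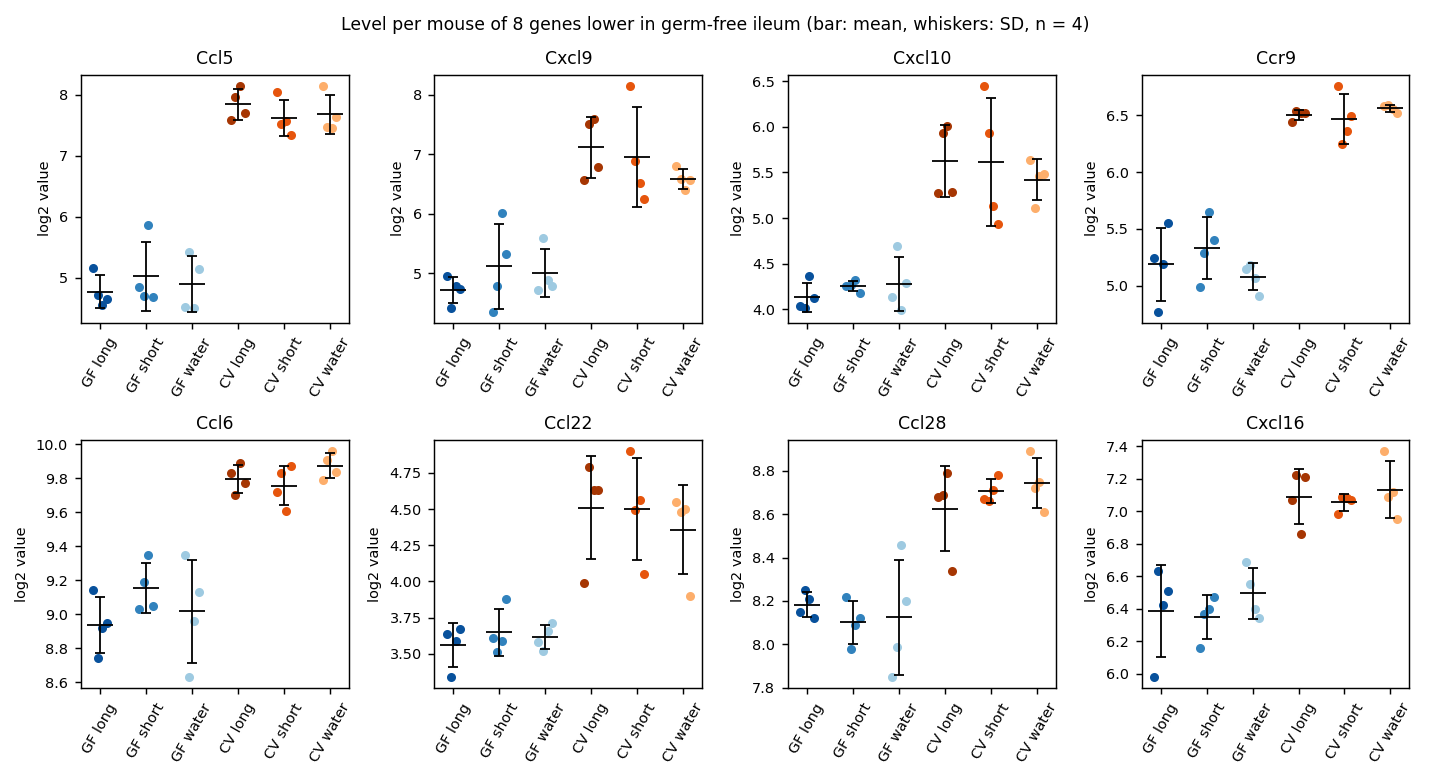
Log2 value per mouse of 8 genes in the 6 groups, germ-free (GF) left of conventional (CV), with points for mice, bars for group means and whiskers for the SD (n = 4). Every germ-free mouse lies below every conventional mouse for 7 of the 8 genes, and for Ccl28 germ-free water mouse 3 at 8.46 lies above conventional long-chain mouse 4 at 8.34.

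Of 8 ligands with epithelial or mucosal sources, 4 fell (5.22% of all genes were called lower). Ccl28 encodes the mucosal epithelial ligand of Ccr10, which draws IgA plasma cells. It lay between 7.85 and 8.46 in germ-free mice (median 8.14) and between 8.34 and 8.89 in conventional mice (median 8.70). The ranges overlapped by 1 mouse on each side, and the log2 difference was -0.55 (standard error 0.057, adjusted p = 1.7e-08). Ccr10 had medians of 3.68 in germ-free mice and 3.81 in conventional mice, with ranges that were nearly the same, and was not called. Cxcl16, which is made as a membrane-bound ligand of Cxcr6, lay between 5.98 and 6.69 in germ-free mice (median 6.41) and between 6.86 and 7.37 in conventional mice (median 7.08). These ranges did not overlap, and the log2 difference was -0.68 (standard error 0.067, adjusted p = 6.9e-09). Cxcr6, carried by resident T cells and innate lymphocytes, was 1.52-fold lower (adjusted p = 1.6e-05) with ranges of 3.58 to 4.39 in germ-free mice and 4.31 to 5.09 in conventional mice.

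Ccl20, which encodes the ligand of Ccr6 made by the epithelium over lymphoid follicles, varied more. Germ-free mice had 3.97, 4.45, 4.21 and 4.25 with long-chain fructan, against 4.44, 4.66, 4.49 and 4.52 in conventional mice. With short-chain fructan germ-free mice had 4.35, 3.86, 4.65 and 4.13, against 4.60, 5.90, 5.08 and 4.20 in conventional mice. Water mice had 4.26, 4.36, 4.17 and 4.33 when germ-free, against 5.32, 5.21, 5.04 and 4.78 when conventional. Only on water did the 2 groups not overlap. The log2 difference was -0.60 over the 3 treatments (standard error 0.13, adjusted p = 5.1e-04) and was -0.81 on water, -0.69 with short-chain fructan and -0.30 with long-chain fructan, where it was not called. The short-chain call was lost without germ-free mouse 2 or 4 or conventional mouse 2 or 3, and when only the groups compared were fitted. Ccr6 had a log2 difference of -0.12 and was not called. Cxcl14, which encodes an epithelial ligand, was 1.34-fold lower (adjusted p = 1.2e-05).

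Ccl25, the small intestinal epithelial ligand that draws lymphocytes to the small bowel, went the other way from its receptor Ccr9. The probe set of Ccl25 lay between 11.02 and 11.28 in germ-free mice (median 11.15) and between 10.85 and 11.06 in conventional mice (median 10.99). This log2 difference of 0.19 (standard error 0.032, adjusted p = 4.8e-05) is under the fold threshold, and the ranges overlapped slightly. A second, dimmer probe set of Ccl25 had a log2 difference of 0.55 (standard error 0.073, adjusted p = 1.3e-06), so that both sets were higher in germ-free mice but only the second would have been called. Ccr9 had log2 values of 5.24, 4.77, 5.19 and 5.55 in germ-free long-chain mice, against 6.44, 6.54, 6.52 and 6.52 in conventional long-chain mice. In short-chain mice they were 4.99, 5.29, 5.65 and 5.40 when germ-free, against 6.76, 6.25, 6.36 and 6.49 when conventional. On water they were 5.15, 5.18, 5.07 and 4.91 in germ-free mice, against 6.58, 6.59, 6.56 and 6.52 in conventional mice. The 2 sets of mice were well apart in each treatment, and the log2 difference was -1.31 (standard error 0.077, adjusted p = 4.8e-13). Of the 10 lymphocyte receptors, 3 fell over the 3 treatments, namely Ccr9, Cxcr6 and Cxcr3 (5.22% of all genes were called lower).

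**Figure D3:**
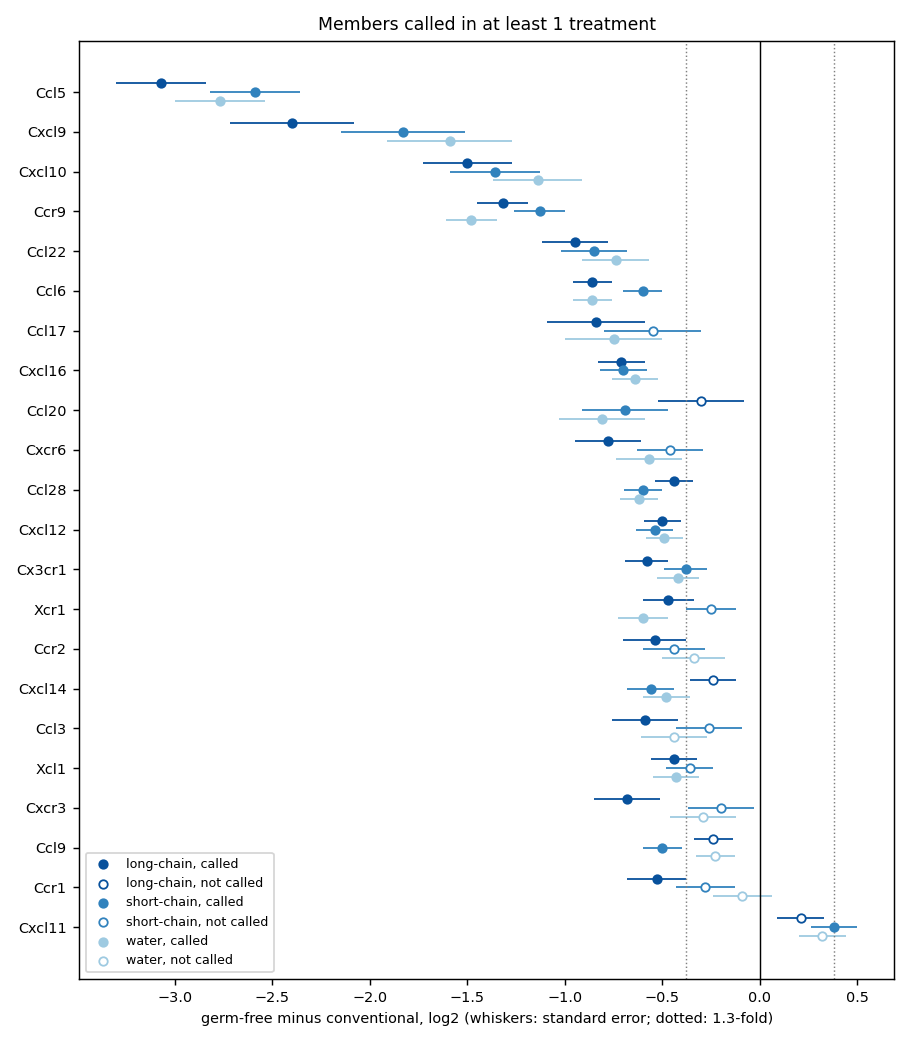
Germ-free minus conventional log2 difference of the 22 members called in at least 1 of the 3 treatments, with long-chain fructan, short-chain fructan and water in separate rows per gene, whiskers for the standard error, filled points for calls and dotted lines at 1.3-fold. All points lie left of 0 except those of Cxcl11.

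Among 6 ligands of eosinophils and type 2 cells, 2 fell, both ligands of Ccr4 (5.22% of all genes were called lower). Ccl22 lay between 3.34 and 3.88 in germ-free mice (median 3.60) and between 3.90 and 4.90 in conventional mice (median 4.53), a log2 difference of -0.85 (standard error 0.098, adjusted p = 1.1e-07). The ranges touched without overlapping, at 3.88 and 3.90. Ccl17 was 1.64-fold lower (adjusted p = 2.6e-04) with overlapping ranges, and conventional short-chain mouse 2, at 6.09, stood above the others. Ccr4 itself had a log2 difference of -0.27, under the fold threshold. Ccl11, the eosinophil ligand of Ccr3, and Ccr3 were not called, with log2 differences of -0.20 and 0.13.

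Of 3 lymphoid and stromal ligands, only Cxcl12 fell (5.22% of all genes were called lower). Cxcl12, which stromal cells make and Cxcr4 reads, lay between 5.69 and 6.16 in germ-free mice (median 5.94) and between 6.27 and 6.61 in conventional mice (median 6.41). The ranges did not overlap, and the log2 difference was -0.51 (standard error 0.055, adjusted p = 4.3e-08). Cxcr4 had a log2 difference of -0.01. Cxcl13, which organizes B cell follicles through Cxcr5, had medians of 7.53 in germ-free mice and 7.54 in conventional mice, and Cxcr5 had medians of 2.56 in germ-free mice and 2.60 in conventional mice. Neither was called, nor were Ccl19 (log2 difference -0.10) and the receptor Ccr7 (-0.15), which guide naive T cells and dendritic cells. Ccl21a has no probe set of its own, and the sets it shares with Ccl21b, Ccl21c and Gm1987 were 1.37-fold lower (log2 difference -0.46, standard error 0.10, adjusted p = 8.3e-04). These 4 shared sets hold the same values and count as 1 measurement, which cannot be assigned to 1 of the genes. Within the treatments this measurement was called only with short-chain fructan (-0.56). Ackr4, an atypical receptor, shares its set with Acad11, and that set had a log2 difference of -0.35 over the 3 treatments, under the fold threshold, and -0.48 on water, where it was called. Sets that Ccl27a, a ligand of Ccr10, shares with predicted genes ran from -0.42, which was called, to -0.11, which was not. A set shared by Cxcl16 and Zmynd15 had a log2 difference of -0.34 over the 3 treatments, under the fold threshold. That set was called on water (-0.43) and with long-chain fructan (-0.44), but not with short-chain fructan (-0.15).

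The 4 ligands of neutrophils, Cxcl1, Cxcl2, Cxcl3 and Cxcl5, were not called in this comparison. Their log2 differences ran from -0.02 to 0.07. Their receptors Cxcr1 and Cxcr2 had differences of 0.06 and -0.02, with no call.

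Of 7 myeloid and shared receptors, 3 fell (5.22% of all genes were called lower). Cx3cr1, which marks intestinal macrophages, lay between 5.54 and 5.97 in germ-free mice (median 5.60) and between 5.79 and 6.38 in conventional mice (median 6.13), a log2 difference of -0.46 (standard error 0.061, adjusted p = 9.8e-07). Its ligand Cx3cl1 had medians of 7.65 in germ-free mice and 7.66 in conventional mice and was not called. Xcr1, the receptor of cross-presenting dendritic cells, was 1.36-fold lower (adjusted p = 5.5e-05), and Xcl1, its ligand from T and natural killer cells, was 1.33-fold lower (adjusted p = 3.6e-05). Both had overlapping ranges. Ccr2, which brings monocytes out of the blood, was 1.35-fold lower (adjusted p = 4.9e-04). Ccr1 was called only with long-chain fructan (log2 difference -0.53, adjusted p = 0.016), and not without germ-free long-chain mouse 4. None of the 3 atypical receptors was called, with log2 differences from -0.24 (Ackr3) to -0.07 (Ackr2).

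Chemokine genes lie in clusters in the genome, and neighbours did not always move together over the 3 treatments. In this comparison of germ-free with conventional mice, 5.22% of all genes were called lower. On chromosome 9, between 123767211 and 124109140, 6 receptor genes follow each other, and 4 of them fell, namely Ccr9 (-1.31), Cxcr6 (-0.60), Xcr1 (-0.44) and Ccr2 (-0.44), while Ccr1 (-0.30) and Ccr3 (0.13) were not called. On chromosome 11, Ccl5, Ccl6 and Ccl3 fell among 5 ligands between 83525778 and 83664683, and 0 of 6 ligands between 82035577 and 82179812 were called. Cxcl9 and Cxcl10 fell and Cxcl11 did not within 1 cluster on chromosome 5. In the neighbouring cluster 0 of the 5 members Cxcl1, Cxcl2, Cxcl3, Cxcl5 and Cxcl15 were called. The genes Ccl22 and Ccl17 on chromosome 8 flank Cx3cl1, which was not called.

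Genes around chemokines were read from lists written from general knowledge, and their counts in germ-free against conventional mice over the 3 treatments stand against 5.22% of all genes called lower and 2.99% called higher. All 17 measured targets of interferon-γ fell in germ-free mice, with a median log2 difference of -1.30, among them Cd74 (-1.77) and H2-Ab1 (-1.82) of antigen presentation by MHC class II. Of 15 homing and adhesion genes 8 fell, among them Itgae (-1.24), the integrin chain that holds lymphocytes to epithelium, and Selplg (-0.96), the selectin ligand. Of 22 genes of signalling below chemokine receptors 9 fell, among them Rac2 (-0.92) and Pik3cd (-0.65), both leukocyte genes. Of 22 genes of upstream cytokines, lymphotoxins and their signalling 3 fell, the cytokine genes Tnf (-0.67) and Ltb (-0.60) and the signalling gene Nfkbia (-0.44). Of 7 measured chemokine family genes with other symbols, Ppbp, a platelet ligand, rose (0.68), and Ccrl2, a chemerin-binding receptor, fell (-0.45). Within the single treatments Ppbp was not called.

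Markers of several cell types moved with colonization, in the same comparison with 5.22% of all genes called lower and 2.99% called higher. All 5 markers of intraepithelial T cells fell, with a median log2 difference of -1.83, and their mean per mouse lay between 4.03 and 4.68 in germ-free mice and between 5.60 and 6.64 in conventional mice. Of the T cell markers 4 of 5 fell, of the plasma cell markers 3 of 4, of the B cell markers 2 of 5 and of the macrophage markers 2 of 7. All 5 adipocyte markers rose, with a median log2 difference of 1.41, and their mean lay between 6.12 and 7.98 in germ-free mice and between 5.35 and 6.57 in conventional mice. Of the 5 dendritic cell markers Cd209a rose and Clec9a fell. Of the 5 epithelial markers 0 were called, with a median of 0.03, nor were any of the 4 neutrophil, 4 eosinophil, 4 follicle and 4 endothelial markers. The part of these cell types in the differences of the chemokine genes was not tested.

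**Figure D4:**
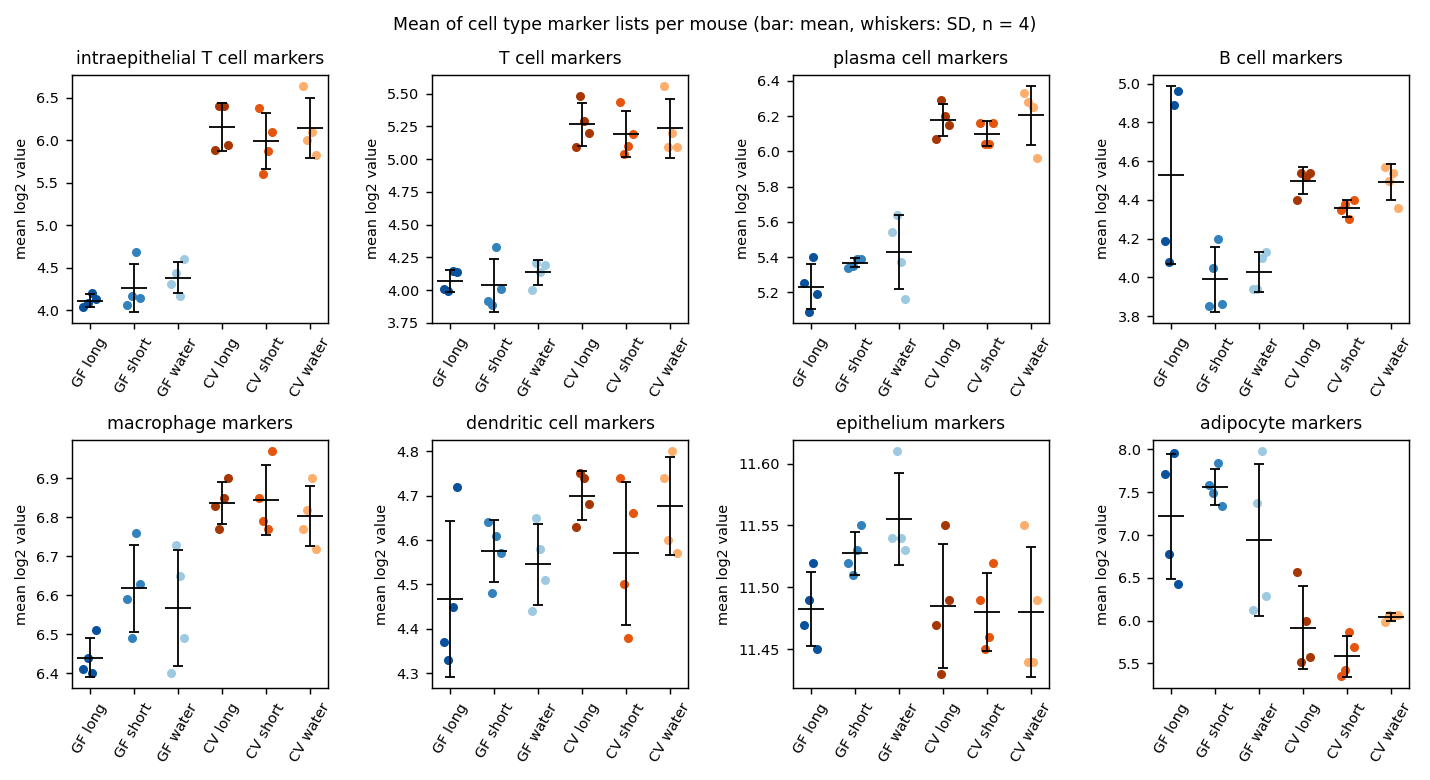
Mean log2 value per mouse of 8 lists of cell type markers in the 6 groups, germ-free (GF) left of conventional (CV), with bars for group means and whiskers for the SD (n = 4). Intraepithelial T cell, T cell and plasma cell markers are lower in all germ-free mice than in all conventional mice, while adipocyte markers are higher in most.

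No chemokine gene was called after either fructan against water. In conventional mice 0 of the 54 members were called after long-chain fructan (0.313% of all genes) and 0 after short-chain fructan (0.409%). In germ-free mice 0 were called after long-chain fructan (0.855%) and 0 after short-chain fructan (0.579%). At an unadjusted p under 0.05 there were 4 members after long-chain and 5 after short-chain fructan in conventional mice (5.67% and 5.22% of all genes), and 2 after long-chain and 1 after short-chain fructan in germ-free mice (8.74% and 5.71%), while no gene of the array passed an adjusted p under 0.05 in these comparisons (limma). The 2 comparisons of each colonization state share their water mice. The 95% intervals lay within 2-fold in both directions for 52 and 53 of the 54 members in conventional mice and for 54 and 54 in germ-free mice, and smaller changes could not be judged with this number of mice. The widest bounds belonged to Cxcl9 and Ccl20, up to 1.19 for Cxcl9 after long-chain fructan in conventional mice.

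The differences nearest to a call were in Ccl20, Ccl8 and Ccr6. After long-chain fructan, Ccl20 in conventional mice was at 4.44 to 4.66, against 4.78 to 5.32 on water, with no overlap (log2 difference -0.56, 95% interval -1.01 to -0.10, adjusted p = 0.86, exact permutation p = 0.029, the smallest that 4 mice against 4 can give). Ccl8, a ligand of monocytes and T cells, was at 4.18, 4.47, 4.88 and 5.13 after long-chain fructan in conventional mice, against 3.96, 4.13, 4.44 and 4.07 on water (log2 difference 0.51, adjusted p = 0.86). After short-chain fructan it was at 4.85, 4.84, 4.03 and 4.98, against the same water mice (log2 difference 0.52, adjusted p = 0.91). Both ranges overlapped with water. In germ-free mice Ccr6 was between 2.90 and 2.99 after short-chain fructan, against 3.15 to 3.49 on water, with no overlap (log2 difference -0.32, adjusted p = 0.79, exact permutation p = 0.029).

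**Figure D5:**
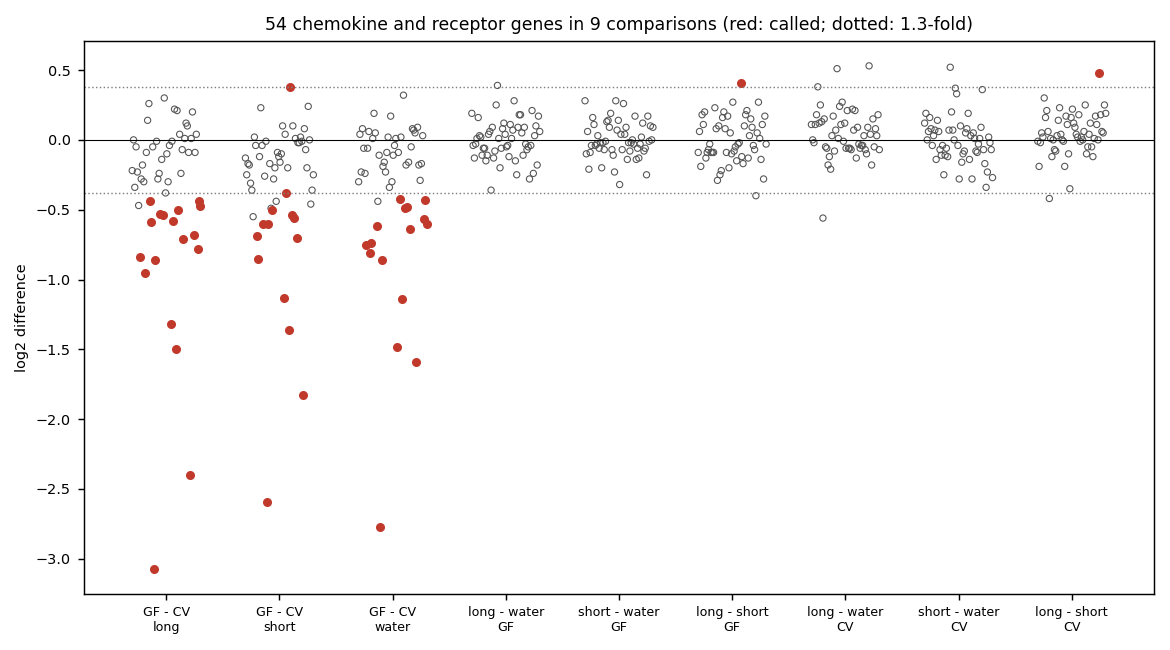
Log2 difference of each of the 54 genes in 9 comparisons, with red points for calls and dotted lines at 1.3-fold; germ-free (GF) minus conventional (CV) comparisons are on the left and fructan comparisons on the right. Calls in the fructan comparisons are Cxcl1 in germ-free mice and Cxcr3 in conventional mice.

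Long-chain and short-chain fructan differ in the length of their fructose chains, and both were given at the same dose and for the same days. In germ-free mice the long-chain preparation was irradiated and the short-chain preparation filtered, so that chain length and sterilization cannot be told apart there. In conventional mice 1 of the 54 members was called between them (0.213% of all genes). Cxcr3 was at 4.26, 4.66, 4.39 and 4.57 with long-chain fructan, against 3.98, 3.63, 4.12 and 4.21 with short-chain fructan. All long-chain mice were above all short-chain mice, though narrowly for the nearest mice, at 4.26 and 4.21, and the log2 difference was 0.48 (95% interval 0.14 to 0.83, adjusted p = 1, exact permutation p = 0.029). The call was lost without long-chain mouse 2, 3 or 4 or short-chain mouse 1 or 2. In germ-free mice 1 member was called (1.85%, near the 1.41% of all genes). Cxcl1, which encodes a neutrophil ligand, was at 4.83, 4.81, 5.39 and 4.77 with long-chain fructan, against 4.69, 4.42, 4.53 and 4.52 with short-chain fructan. Again no value overlapped, and long-chain mouse 3 was far above the other 3 (log2 difference 0.41, 95% interval 0.11 to 0.71, adjusted p = 0.27, exact permutation p = 0.029). The call was lost without long-chain mouse 3 or short-chain mouse 2, 3 or 4. At an unadjusted p under 0.05 there were 2 members in conventional mice (3.63% of all genes) and 4 in germ-free mice (12.7%). For the other members the 2 fructans were not shown to act alike: intervals lay within 2-fold for 54 members in conventional mice and 53 in germ-free mice.

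In the germ-free long-chain group, mice 3 and 4 had the highest values of B cell markers (mean 4.89 and 4.96, against 4.19 and 4.08 in mice 1 and 2) and of Cxcl13 (8.00 and 7.87, against 7.37 and 7.45). Cxcr5 was at 3.29 in mouse 4, against 2.49 to 2.56 in the other 3. Ms4a1, Pax5 and Cd79b, markers of B cells, were called higher in this group than on water (log2 differences of 0.83, 0.53 and 0.44, limma adjusted p of 0.35, 0.30 and 0.39). Cr2, a marker of follicles, was called higher too (0.54, adjusted p = 0.36). Mzb1, a marker of plasma cells, was called lower (-0.59, adjusted p = 0.38). In this comparison 0.855% of all genes were called. The part of lymphoid follicles in these samples was not tested.

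Whether the effect of a fructan differed between germ-free and conventional mice was tested as an interaction. Only the fructans of germ-free mice were filtered or irradiated, so that colonization and preparation cannot be told apart in this test. No member was called, 0 of 54 for long-chain fructan (0.531% of all genes) and 0 of 54 for short-chain fructan (0.707%). At an unadjusted p under 0.05 there were 2 members for long-chain fructan (3.74% of all genes) and 0 for short-chain fructan (5.45%), and no gene passed adjustment in limma. The interval was widest for Cxcl9, whose difference of the long-chain effect was bounded by -1.73 at the lower end. The same test compares the germ-free against conventional difference between a fructan and water, so that members called in 1 of these and not in the other, such as Ccl20 and Cxcr3, were not shown to differ between them.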

How the data were processed

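Expression in terminal ileum was measured on 24 arrays, 4 mice in each of 6 groups, with groups and replicate numbers taken from the sample labels. The authors normalized the arrays with RMA, which corrects background, quantile-normalizes between arrays and summarizes probes, and deposited log2 values. RMA may compress changes of dim probe sets. The methods name a remapped probe set definition, but the values carry the manufacturer's probe set numbers. No plate or scan label was used here, so no batch was tested.

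Of 35556 probe sets, 21218 carried 1 symbol, 1881 several and 12457 none in the platform annotation. Each gene was represented by its brightest single-symbol set (mean of 24 arrays), 18820 genes in all. Values were fitted as deposited in limma 3.58.1 (R 4.3.3) with 6 group means and a prior variance that follows intensity, and 12 contrasts were tested. Calls need p under 0.01 and a fold over 1.3, the study's thresholds. Single genes were also tested with the exact two-sided permutation test over 70 divisions of 8 mice. Counts of lists are given with the share called over all genes, without a set test. Positions and promoters are from RefSeq (GRCm38.p6). The fit was tested on simulated data. Nothing in the sources says that mice of a group came from separate litters or cages, so p-values measure the spread between mice only.

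The text names members called in any contrast, members of fixed ligand and receptor pairs, and the other members only where highest or lowest, and up to 4 called genes per list. A few genes were added after their values were seen (Ccl8, Ccr4, Cxcl2, Cxcl3, Cxcl5, Cxcl15, Cxcr1 and Cxcr2). The members, lists and tests were chosen with earlier results of these data known. Alternatives were cyclic loess, array weights, a common prior, the mean of probe sets, a filter on dim genes, the replicate number as a block, only the arrays compared, and leaving out each array.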

Additional observations from a re-analysis of the deposited data

Results flagged for a closer look

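In 13 of 270 groups of 4 mice, taken over the 45 members named in the text, 1 mouse stood apart from the other 3 (gap to the nearest mouse against the range, Dixon's test), and chance alone flags about 5% of groups. In germ-free mice these were Ccl5 in short-chain mouse 3 (5.87, against 4.69 to 4.85 in the others), Cxcr6 in short-chain mouse 4 (3.77, against 4.25 to 4.33), Cxcl1 in long-chain mouse 3 (5.39, against 4.77 to 4.83) and Cxcr5 in long-chain mouse 4 (3.29, against 2.49 to 2.56). On water they were Ackr2 in mouse 1 (4.24, against 3.98 to 4.03), Ccl3 in mouse 4 (3.59, against 4.12 to 4.15) and Cx3cr1 in mouse 1 (5.77, against 5.57 to 5.59). In conventional mice they were Cxcl1 in long-chain mouse 2 (5.11, against 4.56 to 4.64), Ccl8 in short-chain mouse 3 (4.03, against 4.84 to 4.98), Ccl11 in short-chain mouse 4 (7.21, against 7.33 to 7.34), Cxcl16 in short-chain mouse 1 (6.98, against 7.07 to 7.09), Xcl1 in short-chain mouse 1 (4.91, against 4.75 to 4.77) and Ccl22 in water mouse 4 (3.90, against 4.48 to 4.55). No difference of a fructan effect between germ-free and conventional mice was flagged.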

How the results depend on the processing

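Of 69 calls of single members, 52 were the same in every alternative run for them. Over 1292 refits of these calls 1235 were the same, 57 lost the call and 0 turned sign. Leaving out dim genes kept 17 of the 54 members and 9886 genes. It left 10 calls between germ-free and conventional mice over the 3 treatments, 10 on water and 9 with long-chain fructan. These were fewer because fewer members were tested. A gene was kept if its brightest group reached 5.53, and Ccl5, Cxcl9, Cxcl10 and Ccr9 did so only in conventional groups. For such members this filter is not a check of the call. It left 0 calls between the fructans in conventional and in germ-free mice. With array weights 0 members were called between the fructans in conventional mice. With only the groups compared, 1 was called for long-chain fructan against water in conventional mice, 0 between the fructans in germ-free mice, and 1 for the short-chain interaction. The cause was not tested. With the replicate number as a block, 0 were called between the fructans in germ-free mice. The numbers did not pair the mice, since 4 of 60 same-numbered pairs correlated over 0.1 (median r 0.007, range -0.137 to 0.182), and 0 calls turned sign. Leaving out each mouse gave 18 to 20 calls over the 3 treatments, 13 to 17 on water, 12 to 15 with short-chain and 15 to 19 with long-chain fructan. For fructans against water the counts were 0 to 1 for short-chain and 0 to 1 for long-chain fructan in conventional mice, and 0 to 0 and 0 to 1 in germ-free mice. Between the fructans they were 0 to 2 in conventional and 0 to 2 in germ-free mice, and for the interactions 0 to 0 (short-chain) and 0 to 1 (long-chain). A count of 0 became 1 for short-chain fructan against water in conventional mice without short-chain mouse 2 or 3 or water mouse 2 or 3, for long-chain fructan without long-chain mouse 1 or water mouse 3, for long-chain fructan in germ-free mice without water mouse 4, and for the long-chain interaction without germ-free long-chain mouse 1. Between the fructans 2 were called without conventional short-chain mouse 4 and without germ-free long-chain mouse 1. Within treatments, calls were also lost for Ccl17 (long-chain, without conventional mouse 2; water, without conventional mouse 2 or 3 or germ-free mouse 1, 2 or 4), Ccl3 (long-chain, conventional 2), Ccr2 (long-chain, conventional 1, germ-free 1 or 3), Cxcr6 (water, germ-free 1 or 3), Xcl1 (long-chain, conventional 2 or germ-free 3; water, conventional 3 or germ-free 2) and Xcr1 (long-chain, germ-free 2). The call of Cxcr3 over the 3 treatments was lost in 9 alternatives and that of Cx3cr1 with short-chain fructan in 7. Dim probe sets limit what changes can be seen.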

Other observations

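Within each colonization state, the deviation of 4 members from their group mean was set against that of the mean of the 5 intraepithelial T cell markers (n = 12 mice each, 8 relations, 100000 permutations). Permutations ran over all 12 deviations and not within groups, although the group means had been removed. The permutation p-values and adjusted p below are therefore too small and serve as description only. The 4 members with the largest differences between germ-free and conventional mice were taken, after these were seen. For Ccl5, Pearson's r was 0.75 in germ-free mice (permutation p = 0.0061, adjusted p = 0.019; Spearman's rho 0.68, permutation p = 0.018, adjusted p = 0.072) and 0.78 in conventional mice (permutation p = 0.0032, adjusted p = 0.019; rho 0.54, permutation p = 0.072, adjusted p = 0.13). Without the 2 mice farthest from the median of the markers, r was 0.43 in germ-free mice and 0.52 in conventional mice, so that both relations lean on those mice. For Ccr9, r was 0.40 in germ-free mice (permutation p = 0.20, adjusted p = 0.20; rho 0.34, permutation p = 0.28, adjusted p = 0.29; 0.36 without 2 mice) and 0.68 in conventional mice (permutation p = 0.0071, adjusted p = 0.019; rho 0.70, permutation p = 0.013, adjusted p = 0.072; 0.66 without 2 mice). For Cxcl9, r was 0.64 in germ-free mice (permutation p = 0.027, adjusted p = 0.050; rho 0.45, permutation p = 0.14, adjusted p = 0.19; 0.56 without 2 mice) and 0.61 in conventional mice (permutation p = 0.031, adjusted p = 0.050; rho 0.53, permutation p = 0.080, adjusted p = 0.13; 0.42 without 2 mice). For Cxcl10, r was 0.46 in germ-free mice (permutation p = 0.13, adjusted p = 0.15; rho 0.60, permutation p = 0.043, adjusted p = 0.11; 0.72 without 2 mice) and 0.46 in conventional mice (permutation p = 0.13, adjusted p = 0.15; rho 0.33, permutation p = 0.29, adjusted p = 0.29; 0.16 without 2 mice). The values share an array, and no cause of these relations was tested.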
